A study of Drosophila melanogaster with 29 samples.

Results

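The cytosolic ribosomal protein genes are the genes whose symbol in the low-cell tables is RpL or RpS followed by a number and up to 2 letters, together with RpLP0, RpLP1, RpLP2 and sta. The rule found 88 of the 17612 genes measured, of which 47 encode other large subunit proteins, 38 small subunit proteins and 3 the acidic stalk. A reading that allows at most 1 letter after the number gives 84, and leaves out RpS15Aa, RpS15Ab, RpL10Aa and RpL10Ab. The mitochondrial ribosomal proteins, which carry the prefix mRp, are a separate list.

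The study profiled neurons of the fly head-direction circuit in the central complex, with 3 RNA sequencing protocols, from adult Drosophila melanogaster females dissected 3 to 5 days after eclosion. Each neuron type was marked with the nuclear reporter nls-tdTomato under a genetic driver line, dissociated with a protease and isolated by FACS, so a type stands for the cells labelled by 1 or 2 driver lines. The low-cell protocol gave 14 libraries of PEN2 neurons (line SS02232, 35 cells each, in 2 sample entries of 8 and 6 libraries), 7 libraries of R4d ring neurons (SS00238, 40 cells each) and 8 libraries of central brain RNA (CB; 50 pg each, taken after the optic lobes were removed). The bulk protocol gave 4 libraries of D7 neurons (2 from SS02238 and 2 from SS30295), 4 of EPG neurons (lines SS00096 and SS00131, 2 each), and 2 each of PEG (SS02191) and PEN2 (SS02232), with 754 to 1270 cells in a library, and 2 libraries of 5 ng whole brain RNA (WB). The single-cell plates were 6 of PEN1 neurons (SS62862) and 5 of PEN2 neurons (SS02232), of which 380 PEN1 and 362 PEN2 wells with at least 500 genes were used. CB and WB carry no reporter, were not sorted and hold all brain cell types, so sorting and cell type cannot be told apart in a comparison with them. Nothing in the labels says that the libraries of a group came from separate flies, so p-values measure the spread between libraries.

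A cytosolic ribosome joins a large and a small subunit, each built from ribosomal RNA and one copy of most of these proteins, while the stalk proteins RpLP1 and RpLP2 sit on RpLP0 and recruit elongation factors. The genes are among the most highly expressed in animal cells, and in flies losing a copy of many of them gives the slow-growing Minute phenotype. Several have a duplicate gene, and some of the duplicates, such as RpS5b, RpS10a and RpS19b, are known mainly from the germline.

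Gene counts per library were 1001162 to 1154010 in R4d, 399694 to 500622 in PEN2 and 340527 to 415414 in CB, and a summed plate had 2444192 to 5783837. The bulk table holds FPKM, so its depth is unknown. Of 10 glial markers, 9 were tested in the low-cell fit and all 9 were called lower in both sorted types than in CB; the list took 0.710 to 0.775% of CB counts, at most 0.0426% in PEN2 and at most 0.00600% in R4d, where repo, alrm, Gat, moody and wrapper were at 0. Of 6 pan-neuronal markers, 4 were higher in each sorted type than in CB, and 1 was lower in R4d.

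In the low-cell libraries, the ribosomal protein genes took 8.98 to 11.3% of all gene counts in R4d (10.0% ± 0.916, SD, n = 7), 4.32 to 6.50% in PEN2 (5.35% ± 0.701, n = 14) and 3.798 to 5.28% in CB (4.63% ± 0.531, n = 8). Every R4d library lay above every PEN2 and CB library, while PEN2 and CB overlapped. The 2 PEN2 sample entries differed, with 5.33 to 6.50% in the 8 libraries of the first and 4.32 to 5.19% in the 6 of the second, so they did not overlap with each other. With rRNA and mitochondrial genome genes left out of the total, the shares were 9.32 to 11.7% in R4d, 4.51 to 6.87% in PEN2 and 4.23 to 5.73% in CB.

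**Figure D1:**
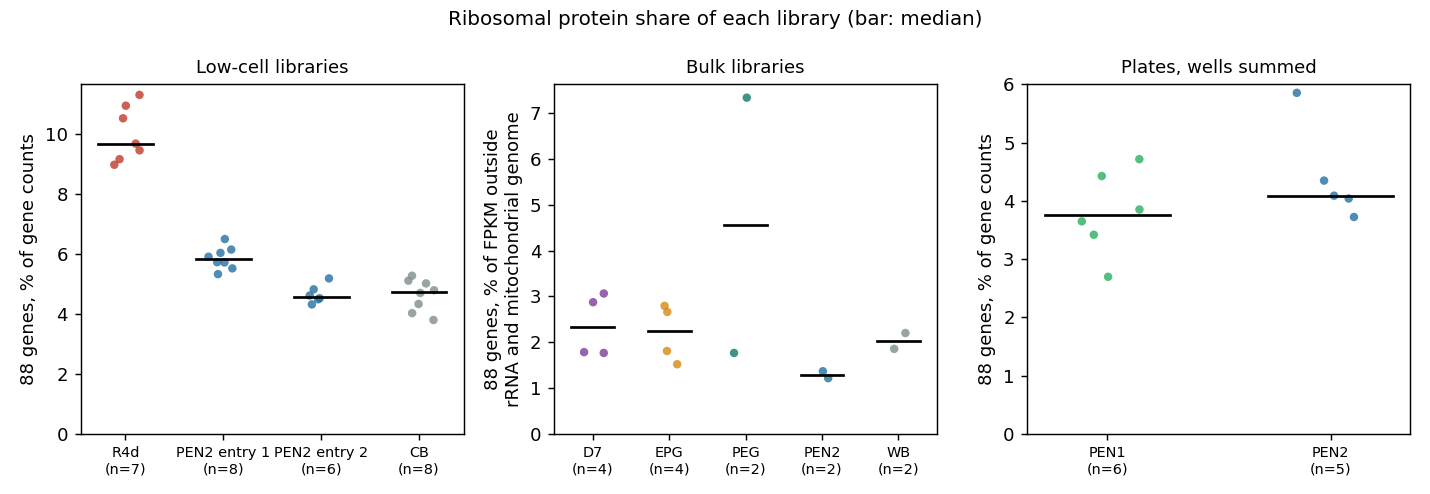
Share of each library taken by the 88 ribosomal protein genes. Points are libraries (plates in the right panel) and bars are group medians; the low-cell and plate panels give percent of gene counts, the bulk panel percent of FPKM outside rRNA and the mitochondrial genome. R4d libraries (8.98 to 11.3%) stand above all PEN2 and CB libraries, and PEG replicate 1 (7.34%) stands apart in bulk.

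Of the 88 genes, 82 passed the filter on low counts in the low-cell libraries, and the other 6 (RpS10a, RpL37b, RpS5b, RpL10Aa, RpS19b and RpS28a) are described with the paralogues. A gene was called at an adjusted p below 0.05 in edgeR's quasi-likelihood test, with p-values adjusted by Benjamini and Hochberg over all 5553 genes tested. Against CB, 75 of the 82 were higher in R4d and 0 were lower, where 10.8% of all tested genes were called higher and 16.5% lower. The median log2 change of the 82 was 1.16 (quartiles 0.79 and 1.78), beside a median of -0.10 over all genes. For 70 genes every R4d library was above every CB library, beside 10.8% of tested genes called higher and 10.0% of tested genes with the same lack of overlap. Of 1611 other genes of at least 100 CPM, of any transcript length, 24.7% were called higher. The large subunit had 41 of 45 tested genes higher (median log2 change 1.08), the small subunit 31 of 34 (1.35) and the stalk 3 of 3 (0.88).

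The stalk genes differed in size of change. RpLP1 (FBgn0002593) had 1872 CPM (gene counts scaled to a common library total) in the lowest R4d library, 2277 in the median and 2892 in the highest, against 401, 481 and 602 in CB. R4d and CB did not overlap, and the log2 change was 2.26 ± 0.15 (SE; edgeR adjusted p 1.2e-14). RpLP2 ran from 632 over 725 to 985 CPM in R4d and from 348 over 399 to 567 in CB, a log2 change of 0.88. RpLP0 (FBgn0000100), the base of the stalk, had 786, 1037 and 1356 CPM in R4d and 537, 593 and 800.5 in CB, with 6 of 7 R4d libraries above all CB libraries and a log2 change of 0.79 ± 0.14 (adjusted p 1.64e-05).

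The gene with the largest change was RpS14b (FBgn0004404), a small subunit gene with a close copy, which had 146, 223 and 269 CPM (lowest, median, highest) in R4d and 10.3, 31.5 and 39.9 in CB. Its log2 change was 3.01 ± 0.51 (edgeR adjusted p 1.03e-05). RpS20 (FBgn0019936), another small subunit protein, had 1127, 1306 and 1629 CPM in R4d against 206, 247 and 284 in CB (log2 change 2.50 ± 0.28, adjusted p 3.95e-09). RpS28b, RpL36A and RpL41, which encodes a very short peptide of the large subunit, followed with log2 changes of 2.23, 2.21 and 2.21. All 7 R4d libraries were above all 8 CB libraries for these 5 genes.

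The remaining genes named for their roles were also higher in R4d than in CB. RpS27A and RpL40, which are made as fusions with ubiquitin, had log2 changes of 1.80 and 0.79. RpS6, the substrate of the growth-regulated S6 kinase, had 966 to 1643 CPM in R4d and 385 to 718 in CB (log2 change 1.13). The change was 1.30 for RpL3, a protein that reaches towards the peptidyl transferase centre, 1.28 for RpL22 and 1.84 for sta, the small subunit protein of the stubarista gene. The 7 tested genes not called were RpL19, RpS4, RpS3A, RpL13, RpL34b, RpL4 and RpS15Ab, with log2 changes from -0.78 (RpS15Ab) to 0.51 (RpL19).

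Against PEN2, which was also sorted, 72 of the 82 were higher in R4d and 0 lower. Of all tested genes, 11.7% were called higher and 11.8% lower. The median log2 change of the 82 was 1.12 (quartiles 0.78 and 1.39), beside 0.03 over all genes. The comparisons of R4d with CB and with PEN2 share the R4d libraries. R4d and PEN2 libraries differed in cells per library and in gene counts. All R4d libraries came from the same sample entry, and the PEN2 entries differed from each other in share. Neuron type and sample entry therefore cannot be told apart here. RpS14b was again first, with 2.20, 48.6 and 138 CPM in PEN2 and a log2 change of 2.45 ± 0.41 (edgeR adjusted p 1.02e-05). RpL41 (2.21), RpS13 (2.01), RpL10Ab (1.84), RpS27A (1.82) and RpLP1 (1.78) followed, each with all 7 R4d libraries above all 14 PEN2 libraries. RpLP0 and RpL34b stood at the other end. RpLP0 had 963, 1163 and 1884 CPM in PEN2, which overlapped R4d, and a log2 change of -0.05 ± 0.12 (adjusted p 0.852). RpL34b, with 184 to 584 CPM in PEN2 and 226 to 391.7 in R4d, had a log2 change of -0.03 ± 0.21 (adjusted p 0.956), which became 0.52 without the first PEN2 sample entry (adjusted p 0.0254).

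**Figure D2:**
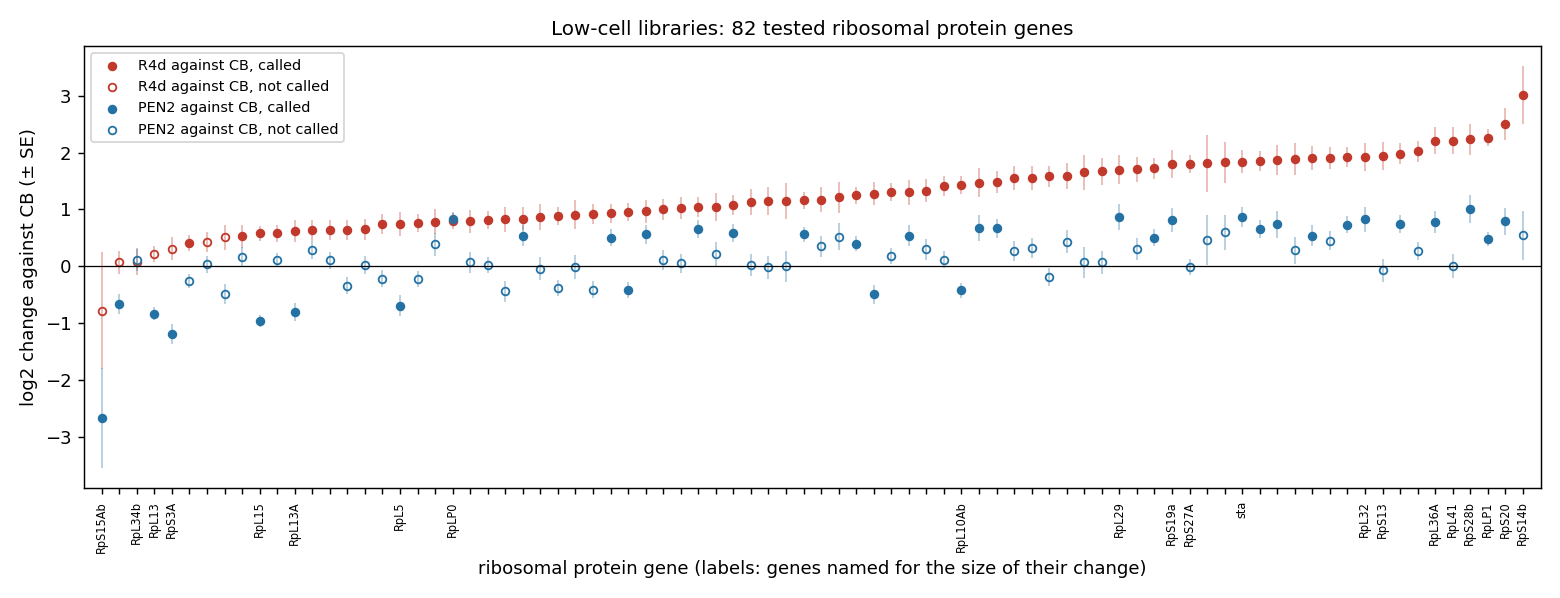
Log2 change (± SE) against CB for each of the 82 tested ribosomal protein genes, ordered by the change in R4d (red) and with the change in PEN2 (blue); filled points were called, and genes named for the size of their change in a low-cell comparison are labelled. R4d points run from -0.78 (RpS15Ab) to 3.01 (RpS14b), with 75 called higher, while PEN2 points lie on both sides of 0, with 25 called higher and 10 lower. The comparisons share the CB libraries.

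The change in R4d moved with transcript length. The 88 genes have short transcripts, with a median longest annotated transcript of 871 nt. Among tested genes outside the set, those of at most 500 nt had a median log2 change of 1.67 in R4d against CB (71 genes), those of 500 to 1000 nt 0.61 (634 genes), those of 1000 to 1500 nt 0.06 (852 genes) and those above 2500 nt -0.39 (2459 genes). The ribosomal protein genes in the first 3 classes had medians of 1.70 (3 genes), 1.51 (48 genes) and 0.91 (28 genes). Of the other genes of at least 100 CPM, these classes held 10, 181 and 192. Their medians in R4d against CB were 2.07, 0.86 and 0.06, with 90%, 45.3% and 20.8% called higher. Against PEN2 the medians were 1.63, 0.89 and 0.39, with 80%, 49.7% and 28.6% called higher. With a length trend fitted in each library over 1608 other genes of at least 100 CPM and used as an offset, 38 of the 82 were called higher and 6 lower in R4d against CB (median 0.46), and 20 higher and 13 lower against PEN2 (median 0.22). With the trend fitted over all 5440 other genes the counts were 54 higher and 0 lower against CB (median 0.81), and 12 higher and 22 lower against PEN2 (median -0.13). RpS14b kept its direction in all of these fits, with log2 changes of 1.58 and 2.00 against CB and 1.13 and 1.07 against PEN2, the last with an adjusted p of 0.0545. RpLP2 and RpL40 turned to -0.54 and -0.46 against CB with the first trend, and RpL41 to -0.48. RpLP0 and RpL34b were called lower in R4d than in PEN2 with that trend, at -0.55 and -1.02. The shares of all tested genes called with these offsets are not given here. The counts with an offset therefore do not show whether the set still stood apart from other genes. The part of length in the difference was not otherwise tested.

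**Figure D3:**
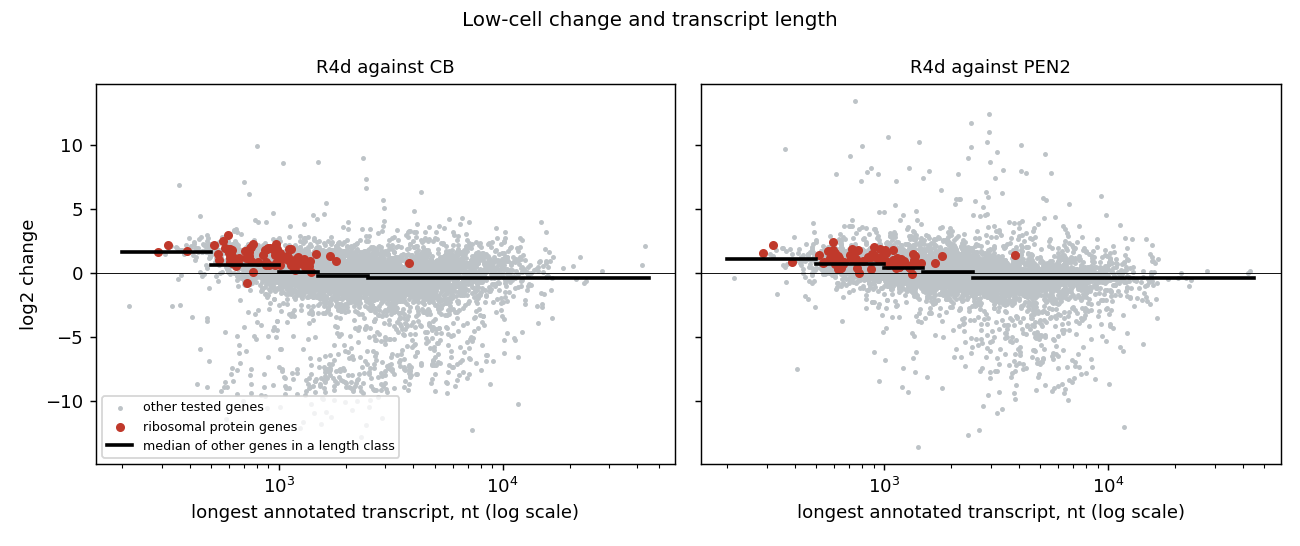
Log2 change in R4d against CB (left) and against PEN2 (right) by length of the longest annotated transcript (log axis). Grey points are other tested genes, red points the ribosomal protein genes, and black lines the median of the other genes in each length class, which falls from 1.67 in the shortest class to -0.39 in the longest against CB and from 1.10 to -0.38 against PEN2.

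Other measures moved with the R4d libraries as well. Mitochondrial genome genes took 2.62 to 4.19% of counts in R4d, 4.23 to 5.90% in PEN2 and 7.79 to 10.3% in CB, and the heat shock list 0.0721 to 0.175%, 0.0368 to 0.525% and 0.0509 to 0.0723%. Their part in the result was not tested. With all libraries thinned to the smallest total, R4d had 73 genes higher against CB and 71 against PEN2, and 0 lower in either. Shares of all tested genes called after thinning are not given here.

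PEN2 against CB gave a mixed pattern within the set. Of the 82 tested genes, 25 were higher and 10 lower in PEN2, where 7.11% of all tested genes were called higher and 11.1% lower, and the median log2 change was 0.20, beside -0.13 over all genes. Of the 1611 other genes of at least 100 CPM, 18.9% were called higher, with a median of 0.00. The clearest rise was in RpLP0, with all 14 PEN2 libraries (963 to 1884 CPM) above all 8 CB libraries (537 to 800.5) and a log2 change of 0.83 ± 0.12 (edgeR adjusted p 1.1e-06). The other genes named for their size of change on the higher side were RpS28b (1.01 ± 0.24), sta (0.87 ± 0.18), RpL29 (0.87 ± 0.23), RpL32 (0.83 ± 0.22) and RpS19a (0.81 ± 0.21), each with 10 to 13 of 14 PEN2 libraries above all CB libraries.

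The genes lower in PEN2 were 7 of 45 tested large subunit genes and 3 of 34 small subunit genes, and those higher were 14 and 9. RpL15 (FBgn0028697), which takes the largest share of the set's counts in CB, had 1146, 1635 and 2668 CPM (lowest, median, highest) in PEN2 and 2305, 3110 and 3556 in CB. In 13 of 14 PEN2 libraries it was below all CB libraries, with a log2 change of -0.96 ± 0.11 (edgeR adjusted p 1.2e-08). RpS3A (FBgn0017545) of the small subunit had 269 to 1077 CPM in PEN2 and 1157 to 1502 in CB, so the groups did not overlap (log2 change -1.19 ± 0.17, adjusted p 6.82e-07). RpL13 (-0.83), RpL13A (-0.80) and RpL5, which carries 5S rRNA into the large subunit (-0.69), were also lower. RpL22 fell by 0.49 on the log2 scale (adjusted p 0.0396) and RpL3 was 0.54 higher (adjusted p 0.0396). RpLP2 (-0.38), RpS6 (0.02), RpS27A (-0.01) and RpL40 (0.07) were not called. Some of the falls depended on whether a length trend was used as an offset, and on which one. With the length trend over all other genes as an offset, RpL15 (0.04), RpL13 (0.24) and RpL13A (0.09) were no longer called. RpL22 turned to 0.56 (adjusted p 0.0201) and RpL10Ab to 0.54 (adjusted p 0.00291). RpS3A and RpL5 kept their direction, as did all of these genes with the trend over genes of at least 100 CPM.

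This comparison depended on the PEN2 sample entry. Without the first entry, 7 genes were called higher and 17 lower (median -0.13), and without the second, 38 higher and 9 lower (median 0.42). The shares of all tested genes called in these fits are not given here. Whether the shift was particular to the set is therefore not shown. RpLP0 was called in both, with log2 changes of 0.73 and 0.89, whereas RpS28b (0.16), RpL29 (0.63), RpL32 (0.37), RpS19a (0.41) and RpL3 (0.29) were not called without the first entry. The heat shock list, of which 4 of 6 tested genes were higher in PEN2 than in CB, took a median of 0.333% of counts in the first entry and 0.199% in the second. Its part in the difference was not tested.

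Within a group, the members varied by a median coefficient of variation of 30.8% over the PEN2 libraries, 16.9% over R4d and 16.5% over CB, for the 82 genes with a mean of at least 5 CPM. Per kilobase of the longest transcript, RpL15 was highest in R4d (4424 CPM per kb) and in CB (2987), and it had 1667 in PEN2. Whether reads cover whole transcripts is not given in the sources used here, so a ranking of genes per kilobase is uncertain. As a share of the set's own counts, RpL15 took 6.56% in CB, 4.49% in R4d and 3.21% in PEN2. RpL36 (3505), RpS27A (3370) and RpLP1 (3025 CPM per kb) followed in R4d, and RpL4 (279.5 CPM per kb) was low there.

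The paralogues separated into pairs with counts for both copies and pairs with 1 scarce copy. How reads matching both copies of a pair were counted is not given in the sources used here, so the split within a pair is uncertain. RpS14b made up 19.5 to 27.1% of the counts of the RpS14a and RpS14b pair in R4d, 0.325 to 19.3% in PEN2 and 2.12 to 8.93% in CB. Every R4d library lay above every other library, while RpS14a (593 to 935 CPM in R4d, 419 to 992 in PEN2 and 349 to 611 in CB) rose only by 0.63 on the log2 scale against CB (edgeR adjusted p 0.00703) and was not called against PEN2 (0.34). In the RpL34a and RpL34b pair, RpL34b made up 41.3 to 63.0% in R4d, 56.1 to 100% in PEN2 and 64.8 to 87.5% in CB. RpL34b had medians of 313, 294 and 286 CPM in R4d, PEN2 and CB, and RpL34a had medians of 316, 124 and 80.2 CPM and a log2 change of 1.81 ± 0.50 in R4d against CB (adjusted p 0.00538).

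RpS15Ab (FBgn0033555) was the scarce copy of its pair, at 18.7 to 56.1 CPM in CB, 9.53 to 43.9 in R4d and 0 to 45.9 in PEN2, where 4 of 14 libraries held its 40 counts. It was lower in PEN2 than in CB (log2 change -2.67 ± 0.88, edgeR adjusted p 0.029), which was lost without the second PEN2 entry (adjusted p 0.119), and it was not called in R4d against CB (-0.78 ± 1.03). RpS15Aa, its partner, had medians of 622 CPM in R4d, 250 in PEN2 and 330 in CB.

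**Figure D4:**
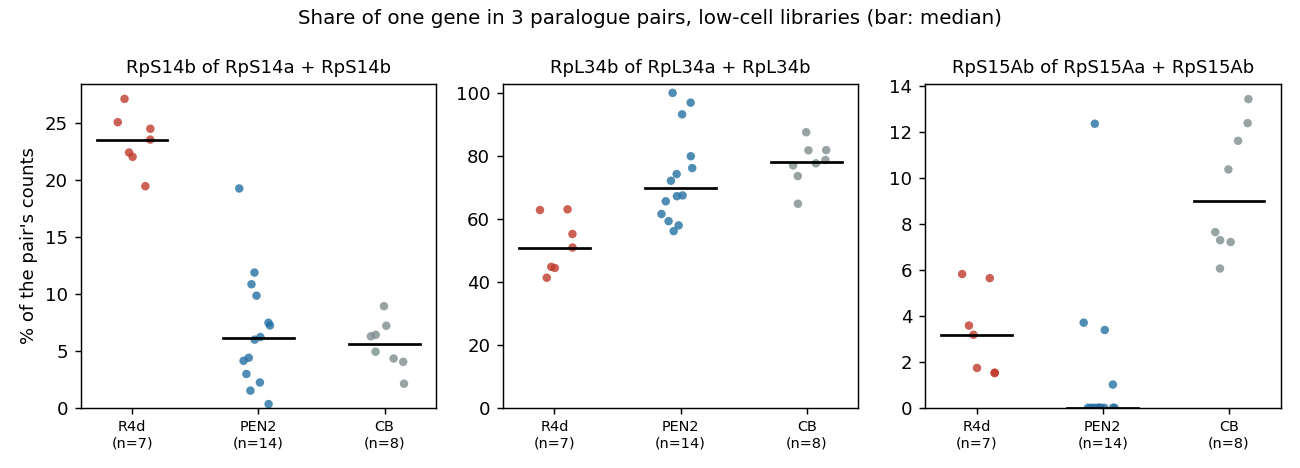
Share of one gene in the counts of its pair, in percent, for RpS14b, RpL34b and RpS15Ab in each low-cell library; points are libraries and bars are medians. RpS14b is highest in R4d (19.5 to 27.1%), RpL34b is lower in every R4d library (41.3 to 63.0%) than in every CB library (64.8 to 87.5%), and RpS15Ab is at 0 in 10 of 14 PEN2 libraries.

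The 6 other copies were scarce or undetected. RpL37b, RpS19b and RpS28a had 0 counts in all low-cell libraries, which allows up to 0.401 CPM over the R4d libraries, 0.473 over PEN2 and 0.959 over CB (3 counts of each group's total; counting error only). RpS10a had 1 count in each of the 3 groups, against 13955, 7392 and 2137 for RpS10b in R4d, PEN2 and CB. RpS5b had 11 counts in 5 of 8 CB libraries, 6 in 1 R4d library and 0 in PEN2, and RpL10Aa had 2 counts in PEN2 and 0 elsewhere. Of the related genes outside the set, RpL22-like and RpL7-like had 0 counts in all groups and RpS28-like 1 count in CB, while RpLP0-like had 4.81 to 40.1 CPM in CB, 10.3 to 57.2 in R4d and 0 to 41.8 in PEN2, with counts in 4 of 14 PEN2 libraries. RpL24-like, related to a yeast factor of large subunit assembly, had 535 to 880 CPM in R4d, 67.2 to 547 in PEN2 and 270 to 419 in CB. It was higher in R4d than in CB (log2 change 1.14, adjusted p 0.000438) and lower in PEN2 (-0.61, adjusted p 0.0402).

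Among other genes of translation, the elongation factor list had 5 of 9 genes higher and 1 lower in R4d against CB (median log2 change 0.97). eEF1alpha2, which delivers aminoacyl-tRNA, rose from a mean of 1116 CPM in CB to 3203 in R4d (log2 change 1.53), while eEF1alpha1, its other isoform, fell from 699 to 159 (-2.13). Initiation factors had 11 of 33 tested genes higher and 1 lower (median 0.86), with the largest called change in eIF3l of the eIF3 complex (2.24), and the gene lower was eIF4E1, the cap-binding protein (-1.10). Mitochondrial ribosomal proteins had 12 of 69 higher and 0 lower (median 0.91), and 12 tested ribosome biogenesis genes had 0 called (median -0.49). Of all tested genes, 10.8% were higher and 16.5% lower in this comparison. In PEN2 against CB, where the shares were 7.11 and 11.1%, the same lists gave 0 higher and 3 lower for elongation, 0 and 4 for initiation, 1 and 1 for mitochondrial ribosomal proteins, and 0 and 0 for biogenesis. Thor, the 4E-BP translation repressor, was at 0 counts in all 7 R4d and all 14 PEN2 libraries and at a mean of 38.1 CPM in CB. raptor, a scaffold of the TOR complex, was higher in both sorted types (80.8 CPM in R4d and 50.1 in PEN2, against 4.84 in CB), and so was Trf2, a factor of ribosomal protein gene transcription in flies (346 and 435 CPM against 188). Thor, raptor and Trf2 come from a longer list of regulators with no shared direction. Against CB, larp was lower in R4d (log2 change -0.60, edgeR adjusted p 0.0395) and higher in PEN2 (0.60, adjusted p 0.0238). Xrp1 was higher in PEN2 (1.01, adjusted p 0.00216) and not called in R4d. S6k, Myc, Max, Rheb, Tsc1, M1BP, Dref and Maf1 were called in neither.

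In bulk, the ribosomal protein genes took 1.21 to 3.06% of the FPKM outside rRNA and the mitochondrial genome in D7, EPG, PEN2 and PEG replicate 2, 7.34% in PEG replicate 1, and 1.85 and 2.20% in the WB libraries. Of the whole FPKM sum, rRNA took 38.0 and 40.8% in WB, 41.9% in PEG replicate 1 and 69.1 to 80.5% in the other sorted libraries. The tests were limma on log2(TMM-scaled FPKM + 1), on which the change of low genes is understated, with 83 of the 88 genes and 9500 genes in all. In the sorted libraries together against WB, 1 gene was higher and 1 lower, where 0.937% of all tested genes were called higher and 7.22% lower. The median log2 change was -0.23, beside -0.20 over all genes. In bulk RNA, fewer cells that express a gene and less RNA per cell cannot be told apart. The heat shock list had 7 of 12 genes higher in the sorted libraries, and 6 of 10 glial markers were lower; their part was not tested.

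RpS7 (FBgn0039757), a small subunit protein, was the gene higher. It had 114 and 151 FPKM in WB, 76.5 to 282 in 11 of the sorted libraries and 665 in PEG replicate 1, so the groups overlapped, with 6 of 12 sorted libraries above both WB libraries. Its log2 change was 1.55 ± 0.40 (limma adjusted p 0.0289), which was 0.45 without scaling beyond FPKM (adjusted p 0.485) and 1.30 with upper-quartile scaling (adjusted p 0.0558). RpS15Ab was the gene lower, with 5.13 and 5.14 FPKM in WB and 0 to 1.88 in the 12 sorted libraries, all below WB (log2 change -1.43 ± 0.33, adjusted p 0.0162). Without scaling beyond FPKM, 0 genes were higher and 4 lower, with a median of -0.93 over all genes, and leaving out either WB library left 0 called. RpL13A (1.78) and RpL39 (-2.39) lay far from the members' median and were not called.

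The sorted bulk libraries spread widely within a type. The median coefficient of variation of the members was 14.5% in WB, against 65.5% for D7, 71.2% for EPG, 74.1% for PEN2 and 95.1% for PEG. These medians cover 80 members in WB, 73 in D7, 74 in EPG, 45 in PEN2 and 80 in PEG. WB, PEN2 and PEG had 2 libraries each. RpLP1, for example, was 15.8, 0.33, 9.29 and 0.54 FPKM in the D7 libraries, and 42.4 FPKM in PEG replicate 1 but listed at 0 in replicate 2.

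PEN2 had the lowest ribosomal protein levels of the sorted bulk types. Against the mean of the other 3 types, 4 genes were lower and 0 higher, where 0.621% of all tested genes were called lower and 1.57% higher, and the median log2 change of the 83 was -1.25, beside -0.21 over all genes. RpL3 (FBgn0020910) was 0.98 and 0.49 FPKM in the PEN2 libraries, 24.4 to 73.1 in the 10 other sorted libraries and 17.1 and 17.8 in WB. PEN2 did not overlap with any other type, and the log2 change was -4.64 ± 0.33 (limma adjusted p 6.5e-05). RpL37a (FBgn0030616), a zinc-binding large subunit protein, was 4.39 and 0.67 FPKM in PEN2 against 14.0 to 106 in the other sorted libraries (-4.27 ± 0.60, adjusted p 0.00309). RpL8 was 0.99 and 0.36 FPKM against 2.36 to 39.1 (-2.62, adjusted p 0.0166), and RpL15 was 6.13 and 0.05 against 14.9 to 168 (-3.82, adjusted p 0.038). The RpL15 call was lost when any of 7 of the libraries was left out, with an adjusted p of 0.352 without PEN2 replicate 2 (-2.40) and 0.0512 to 0.0632 without 1 of 6 D7 or EPG libraries. Leaving out PEG replicate 2, which left 1 PEG library in the reference, raised the number of genes called lower in PEN2. The share of all tested genes called in that fit is not given here.

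**Figure D5:**
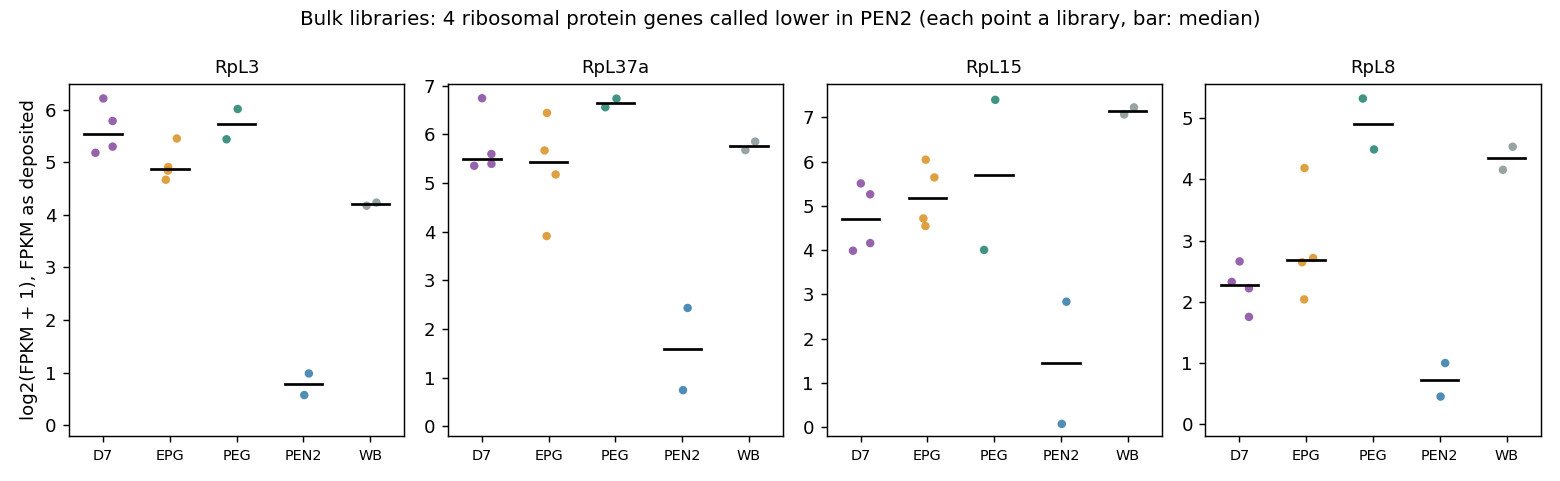
Level of RpL3, RpL37a, RpL15 and RpL8 in each bulk library, as log2(FPKM + 1) of the deposited values; points are libraries and bars are medians. Both PEN2 libraries lie below all other sorted libraries for these 4 genes, which were called lower in PEN2.

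In the low-cell PEN2 libraries, from the same driver line, RpL15 was lower than in CB, and RpL3, RpL37a and RpL8 were higher. RpL3 had 715 to 2608 CPM in low-cell PEN2 and 615 to 1204 in CB, RpL37a 617 to 2267 and 594 to 825, with a log2 change of 0.59 for RpL37a and 0.50 for RpL8 (adjusted p 0.00623 and 0.0148). The 2 protocols were normalized separately and have different brain references, with and without optic lobes, so the difference between them was not tested. RpL37A (FBgn0261608), a different gene whose symbol differs only in the capital letter, went the other way in bulk. It was 11.97 and 12.9 FPKM in PEN2, 0 to 2.82 in D7 and EPG, and 21.8 and 0.32 in PEG (log2 change 2.72 ± 0.93, adjusted p 0.196), so it was not called, although it was without PEG replicate 1 (3.42, adjusted p 0.0254). RpL14 (1.74) was the other gene far above the members' median in PEN2, and was not called.

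The highest summed level was in PEG replicate 1, while PEG replicate 2 (1.77%) lay within the range of the other types. Against the other sorted types 2 genes were higher and 0 lower in PEG, where 1.47% of all tested genes were called higher and 0.432% lower, and the median was 1.35, beside -0.03 over all genes. RpL8 (FBgn0261602) was 21.5 and 39.1 FPKM in PEG and 0.36 to 17.2 in the other sorted libraries (log2 change 2.92 ± 0.49, limma adjusted p 0.0105), a call lost with library quality weights (2.91, adjusted p 0.0746). RpL3 was 63.5 and 42.3 FPKM, within the range of D7 (1.88 ± 0.33, limma adjusted p 0.0109), against a reference that includes the low PEN2 libraries. Without PEG replicate 1, which left only PEG replicate 2, the RpL3 log2 change was 1.46. Without replicate 2, which left only PEG replicate 1, the median of the set was 2.63. The median over all genes in that fit is not given here. PEG replicate 1 stood apart in other ways: the mitochondrial genome took 34.0% of its FPKM, against 1.37 to 3.64% in the other sorted libraries, and the glial markers 0.656%, against at most 0.0493%. The 10 glial markers had 5 called higher in PEG, and their part in the ribosomal protein result was not tested. RpL10, RpL21, RpS4 and RpL4, with log2 changes of -0.65 to -0.53, lay farthest below the members' median and were not called. Without PEG replicate 1 RpL10 was called lower (-3.27, adjusted p 0.0397), and without replicate 2 these 4 changes were above 0.

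In D7, 2 genes were higher and 0 lower, where 1.95% of all tested genes were called higher and 2.56% lower. RpL3 was 73.1, 38.3, 35.2 and 54.1 FPKM in D7 and 0.49 to 63.5 in the other sorted libraries. The ranges overlapped, and its log2 change was 1.85 ± 0.26 (limma adjusted p 0.00137), against a reference that includes the low PEN2 libraries. RpS10a, the copy nearly absent from the low-cell libraries, was 1.76, 1.49, 0 and 4.41 FPKM in D7, at most 0.06 in the other sorted libraries, and 2.53 and 1.86 in WB (1.37 ± 0.35, adjusted p 0.0445). Its call was lost without any 1 of 13 of the 14 libraries (adjusted p 0.0641 to 0.104). In EPG limma called 0 genes, with 3 at an unadjusted p below 0.05, where 1.33% of all tested genes were called higher and 1.24% lower. The genes farthest from the members' median in these types, RpL37A, RpL14 and RpL27A in D7 and RpL15, RpL12, RpS19a and RpL37A in EPG, were not called.

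In the authors' deposited tables for the low-cell libraries, 77 of the 88 genes were higher in R4d than in CB and 0 lower, and 24 were higher and 7 lower in PEN2, at an FDR below 0.05. Over all genes of those tables, 6.72% were higher and 12.4% lower in R4d, and 2.27% and 10.5% in PEN2. In the authors' deposited tables for the bulk types against WB, 0 were higher in any type, and 3 were lower in D7, 4 in EPG and 0 in PEG and PEN2. Over all genes of those authors' deposited tables, 4.45% were lower in D7 and 3.00% in EPG, so the counts of 3 and 4 were near the share of all genes. For PEN2 only 0.0568% of all genes were lower, and the PEG table called 0% in either direction. The share of all genes higher was at most 0.148%, for D7. The counts of 0 therefore do not show that the set was unchanged. Its median log2 change over WB, for 82 genes, was -2.41 for PEN2, -0.94 for EPG, -0.89 for D7 and -0.08 for PEG.

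On the plates, the ribosomal protein genes took 2.70 to 4.72% of the counts in the 6 PEN1 plates and 3.72 to 5.86% in the 5 PEN2 plates, which overlapped. The median well had 3.50% in PEN1 and 3.74% in PEN2, and 39 and 41 of the 88 genes detected, from 3 to 82 in PEN1 and 4 to 83 in PEN2. PEN1 against PEN2 gave 0 genes called in edgeR's test over the plates, where 0.08% of all tested genes were called higher and 0.176% lower. There were 10 genes at an unadjusted p below 0.05, and DESeq2 called 1, RpL29, lower in PEN1 (adjusted p 0.0217). The median log2 change was -0.18, beside 0.00 over all genes.

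RpL29, a large subunit protein, had 191 to 358 CPM in the PEN1 plates and 335 to 619 in the PEN2 plates, with 5 of 6 PEN1 plates below all PEN2 plates (log2 change -0.86 ± 0.23, edgeR adjusted p 0.158). RpS21 had 94.9 to 208 CPM against 261 to 323, and did not overlap (-0.87 ± 0.26, adjusted p 0.264). RpL9 was lower (-0.93, adjusted p 0.36) and RpS14b higher in PEN1 (61.0 to 142 CPM against 19.2 to 62.1; 1.00 ± 0.46, adjusted p 0.943), and neither was called. At least 10 reporter counts were found in 241 of the 380 PEN1 wells and 106 of the 362 PEN2 wells, and with these wells alone edgeR also called 0 genes (median -0.08).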

How the data were processed

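The authors deposited whole-number counts per gene for the low-cell and single-cell libraries, without normalization, and whether they are UMIs is not stated. The deposited bulk table holds FPKM, a unit inferred from its values. The authors' comparison tables hold log2 fold changes of brain over sorted type, turned here, and FDR-adjusted p-values, per the file headers. Per the submitters' processing notes, STARsolo and edgeR were used. The build and annotation are not given in the sources used here. Labels naming other driver lines for a D7 library or a plate were overruled by the sample characteristics, and the R4d group has 7 libraries analysed here.

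ERCC spike-ins and transgenes were left out of totals and tests. Low-cell counts and counts summed per plate (wells with at least 500 genes, positions E12 to H12 left out) were tested with edgeR 4.0.16 (TMM, filterByExpr, quasi-likelihood), and bulk FPKM with limma 3.58.1 on log2(TMM-scaled FPKM + 1) for genes of at least 1 FPKM in at least 2 libraries. P-values were adjusted over all genes of a comparison and calls made under 0.05. Each protocol had 1 fit, with a term per type. The fits were tested on simulated data. Transcript lengths are the longest in Ensembl BDGP6.54.115.

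Genes were named where called with the 6 largest changes in a direction and a mean of at least 20, where among the 4 farthest from the members' median, where paralogous, or from a fixed list of 9. Members and lists were chosen with earlier results of these data known. Alternatives were other scalings, filters, pseudocounts, wells, designs, DESeq2 1.42.0 and left-out libraries. R was 4.3.3. Means are ± SD, and changes ± SE. A gene that the naming rule picked in 1 bulk comparison is not reported here.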

Additional observations from a re-analysis of the deposited data

Results flagged for a closer look

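Of 90 groups of 4 to 10 libraries tested for a library far from the others, 4 passed, near the 1 in 20 that chance gives. RpL13 reached 1802 CPM in 1 R4d library, with the next at 1423. In the D7 bulk libraries, RpL12 was 10.1 FPKM in 1 library with the next at 4.09, RpL37a 106 with the next at 47.4, and RpL39 7.82 with the next at 1.28.

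Each plate held whole brain RNA and ERCC control wells, and the labels do not say which of the positions E12 to H12 held which. Ribosomal protein genes were found at these positions, which entered no comparison. The median over 11 plates was 18 genes detected at E12, 11 at F12, 82 at G12 and 81 at H12. On 3 PEN1 plates, singled out after their values were seen, E12 had 35, 31 and 37, G12 had 27, 12 and 47, and H12 had 11, 28 and 8. Over all 11 plates, the median share of counts taken by ribosomal protein genes was 2.20% at E12, 2.04% at F12, 8.21% at G12 and 8.97% at H12.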

How the results depend on the processing

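The higher R4d level kept its direction against CB in every alternative run, and against PEN2 in all but 1, where the median turned with the length trend over all other genes. Both length trends were chosen after seeing the data. With the trend over all other genes, the genes called in either direction were 68 in PEN2 against CB and 34 in R4d against PEN2. With the trend over genes of at least 100 CPM they were 44 in R4d against CB and 33 against PEN2. Without PEN2 replicate 1 (the first entry), 24 were called in PEN2 against CB. For the sorted bulk types against WB the count was 1 with the strict reading of the symbols, with a pseudocount of 0.1 and with upper-quartile scaling, 4 without scaling and 15 with library quality weights. For D7 it was 1 with a pseudocount of 5, no filter, no scaling, driver line terms or quality weights. For EPG it was 1 with a pseudocount of 0.1. For PEG it was 4 with driver line terms and 1 with quality weights, and for PEN2 2 with quality weights. DESeq2 called 1 on the plates. The cause was not tested for any of these. Leaving out 1 library at a time, or 1 PEN2 entry, gave 73 to 77 in R4d against CB, 69 to 79 in R4d against PEN2, 24 to 47 in PEN2 against CB, 0 to 3 in the sorted types against WB, 1 to 2 in D7, 0 to 1 in EPG, 2 to 13 in PEG, 3 to 10 in PEN2 and 0 to 0 on the plates. Bulk replicate numbers did not pair the libraries (correlations of -0.04 to 0.03 over 21 pairs), and the replicate block left counts at 2, 2, 0, 2 and 4 for the sorted types, D7, EPG, PEG and PEN2. Single genes turned in sign as log2 changes. With the trend over all other genes, in PEN2 against CB, RpL13 was 0.24, RpL15 0.04, RpL13A 0.09, RpL22 0.56 and RpL10Ab 0.54; in R4d against CB, RpLP2 was -0.12 and RpL40 -0.07; in R4d against PEN2, RpLP2 was -0.15, sta -0.13, RpL40 -0.64, RpS19a -0.21, RpL3 -0.03, RpL37a -0.55, RpL34a -0.03 and RpS10b -0.09. With the trend over genes of at least 100 CPM, in R4d against CB, RpL41 was -0.48, RpLP2 -0.54, RpL40 -0.46 and RpS14a -0.04, and in R4d against PEN2, RpLP2 was -0.07, RpL40 -0.47 and RpL37a -0.03. In R4d against PEN2, RpL34b was 0.01 with upper-quartile scaling and with library sizes without ribosomal protein, mitochondrial and rRNA genes, 0.03 without the filter, 0.52 without PEN2 replicate 1 (-0.31 without replicate 2) and 0.01 to 0.08 without single libraries (0.01, 0.03, 0.06, 0.07 and 0.08), and RpLP0 was 0.01 without the filter, 0.07 without PEN2 replicate 1 (-0.08 without replicate 2) and 0.04 without single libraries. In PEG, RpS4 was 0.01 with a pseudocount of 5, and without PEG replicate 2 RpL4 was 1.05, RpS4 1.97, RpL10 1.99 and RpL21 1.36, against -2.08, -3.12, -3.27 and -2.51 without PEG replicate 1. Depth limits the scarce paralogues in the low-cell libraries, and it is unknown in bulk.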
